A study of Mus musculus with 12 samples.

Results

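The 78 genes described here encode the eukaryotic translation initiation factors and the cytosolic aminoacyl-tRNA synthetases. They are the genes whose probe name begins with Eif and a digit, 58 in number, and 20 synthetase genes named by the amino acid they charge (Aars, Cars, Dars, Eprs and so on). Together they have 118 of the 39429 probes and make up 78 of the 30139 genes or transcripts named on the array. The names came from the array design alone, with no use of the measured levels. Among the Eif names, 4 (Eif2c1 to Eif2c4) are older names of the Argonaute genes, which act in small RNA silencing and not in initiation. They were kept because they met the naming rule, and they are described separately.

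The study compared colorectal tissue from C57BL/6N mice, all female and 14 weeks old, on Agilent 1-colour mouse arrays. Wild-type normal tissue came from 4 mice, and normal tissue and polyps each came from the same 4 Apc+/Δ716 mice, which carry 1 truncated copy of Apc in the whole animal and form polyps in the intestine. Every group therefore has n = 4 arrays, and the polyp and normal samples of the Apc mice are from 1 animal at each mouse number. The labels do not say whether a sample was mucosa or the full gut wall, nor how many polyps were pooled in 1 sample.

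Initiation of translation begins when eIF2 brings the initiator tRNA to the small ribosomal subunit, together with eIF1, eIF1A, eIF3 and eIF5. The eIF4F complex (the cap-binding protein eIF4E, the helicase eIF4A and the scaffold eIF4G) brings the mRNA, and the 4E-binding proteins hold eIF4E back when they are not phosphorylated by TOR kinase. After each round, eIF2B reloads eIF2 with GTP, a step that the eIF2-alpha kinases block under stress. The tRNA synthetases attach each amino acid to its tRNA, and several of them sit in 1 large multi-synthetase complex.

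Levels are log2 processed signals with the 75th percentile of the same array set to 0, so a difference of 1 is a 2-fold change. The probe with the highest mean stands for its gene, and levels of different genes cannot be compared because each probe responds differently. The test covered genes with a signal well above background throughout at least 1 group of 4. This held for 76 members and for 20084 genes in all, and Eif2s3y and Eif4e1b, the latter an oocyte cap-binding protein, were not tested. Between 64.6% and 73.8% of probes were well above background per array, no spot was saturated, and arrays of 1 group correlated at 0.959 to 0.992. Differences are given with their standard error (SE), and adjusted p is from limma with Benjamini-Hochberg adjustment over all genes tested, with 0.05 as the threshold. Values on single arrays are listed in the order of mice 102, 104, 105 and 108 for wild-type tissue and 103, 106, 107 and 110 for both Apc groups.

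In polyps against the normal tissue of the same mice, 22 of the 76 tested members were higher (20.5% of all genes tested) and 6 were lower (24.9% of all genes tested), while 48 did not pass the threshold. The members called higher were 28.9% of those tested and those called lower 7.89%. The median log2 difference over the members was 0.17, and over all genes tested it was -0.06. Among members called higher were Vars, Eif4e3, Eif2s1, Mars, Eif2c1, Iars, Eif4ebp1 and Lars, and among those called lower were Eif4ebp3, Eif6, Eif2s2 and Eif4a2. The median of the members' differences within a mouse was above 0 in each, at 0.08 in mouse 103, 0.25 in mouse 106, 0.16 in mouse 107 and 0.24 in mouse 110. Over all genes tested that median was -0.08, -0.09, -0.004 and -0.09 in the same order. Of the 76, 36 were higher in the polyp of all 4 mice, 14 were lower in all 4 and 26 were mixed. This count was not made over all genes tested, so whether it is unusual cannot be told. The polyp arrays lay wholly above the normal arrays for 24 members (20.5% of all genes tested) and wholly below for 5 (24.7% of all genes tested). At an unadjusted p under 0.05, 28 members were higher (23.6% of all genes tested) and 10 lower (29.4%).

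The 8 arrays lay on 2 slides, mice 103 and 106 on slide 2 and mice 107 and 110 on slide 3. Every one of the 28 called members had the same direction on both slides. The calls came from these same arrays, so this was largely fixed by the calls and is no separate support. The count was not made over all called genes. The members' median difference was 0.16 on slide 2 and 0.19 on slide 3. With 2 arrays a group on 1 slide, 2 members passed as higher and 2 as lower on slide 2, and 0 and 1 on slide 3. Over all genes the shares were 7.33% higher and 9.93% lower on slide 2, and 4.58% and 4.89% on slide 3. The split of calls moved with the scaling: quantile normalization gave 37 higher and 4 lower members (23.28% and 21.75% of all genes tested). Normexp background correction with quantile normalization gave 42 and 4 (23.38% and 21.25% of all genes tested). All 22 members called higher were also called under both of these, as were 4 of the 6 called lower.

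**Figure D1:**
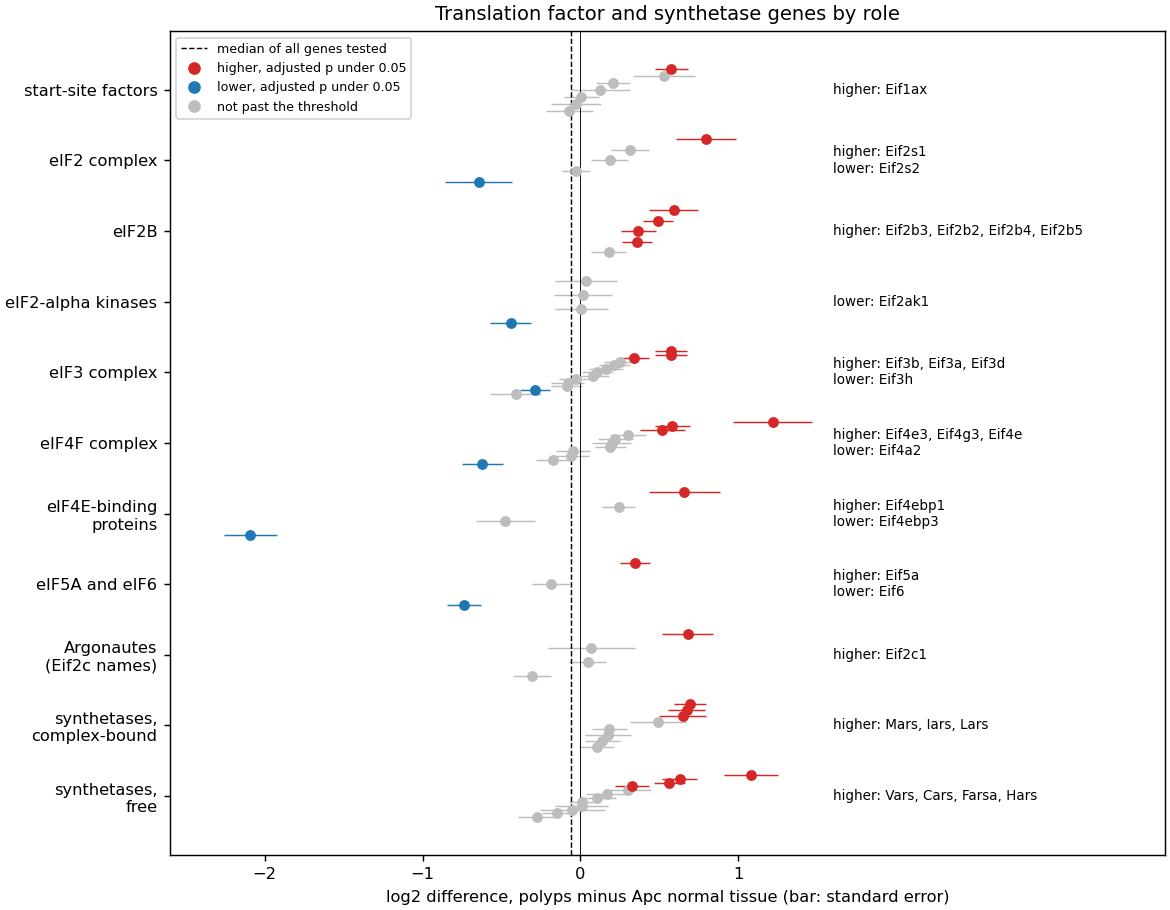
Log2 difference between polyps and Apc normal tissue for the 76 tested genes (horizontal axis; points with standard error bars, n = 4 arrays a group) by role (vertical axis), with genes past the threshold coloured and named at the right. The dashed line is the median of all genes tested, -0.06; the eIF2B genes lie to the right of it and Eif4ebp3 lies farthest to the left at -2.09.

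Markers of the tissue's other cells differed strongly between the same samples. All 6 smooth muscle markers were lower in polyps (median log2 difference -3.98), with a summed level of 8.20 to 8.68 in Apc normal tissue and 4.78 to 5.80 in polyps, and none of the 6 fell below background in any group. The 6 markers of absorptive colonocytes were lower as well (median -2.83; summed level 8.88 to 9.5 against 5.79 to 6.91). All 6 markers of cycling cells were higher (median 1.51; summed level 4.37 to 4.62 against 5.39 to 5.52). Of the neutrophil markers 4 of 5 were higher (median 4.79; summed level 4.45 to 4.75 against 5.58 to 6.99), with Cxcr2 not well above background on any normal array and Mmp9 on no wild-type array. Epithelial markers were closer (3 of 6 lower, summed level 9.09 to 9.28 against 8.64 to 8.84), as were fibroblast markers (1 higher and 1 lower of 5; 5.89 to 6.88 against 5.88 to 6.67). Among leukocyte markers 1 of 6 was lower (5.81 to 6.42 against 4.11 to 4.57), with Cd8a not well above background on any array. By limma 0 of 7 interferon response genes passed, with 1 higher at an unadjusted p under 0.05 (summed level 4.13 to 5.03 against 3.47 to 5.45). Fewer cells of a type and less RNA per cell cannot be told apart in bulk tissue, and the part that these shifts have in the members' differences was not tested.

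Of the start-site factors, Eif1ax rose (14.3% of those tested, beside 20.5% of all genes tested) and the other 6 tested did not pass. Eif1ax, the X-linked gene for eIF1A, which steadies the scanning ribosome, read 2.92, 3.07, 2.98 and 3.14 in wild-type tissue, 3.02, 3.29, 3.05 and 3.0 in Apc normal tissue and 3.59, 3.67, 3.63 and 3.77 in polyps. All polyp arrays lay above all 8 normal arrays. The difference from Apc normal tissue was 0.57 ± 0.10 (SE), 1.49-fold, adjusted p = 0.00288. Its paralog Eif1a, which encodes a near-identical protein, differed by 0.53 ± 0.20 (adjusted p = 0.0588), and with the mouse as a block this passed (adjusted p = 0.03). Eif1, Eif1b and Eif5 differed by -0.03, -0.07 and 0.01, each less than its SE, and Eif1ad, a relative of eIF1A, by 0.21 ± 0.11 (adjusted p = 0.148). A dimmer probe of Eif1 gave -0.82 (adjusted p = 0.217). For Eif1ad a dimmer probe gave 0.36 (adjusted p = 0.018), and the mean over the probes of Eif1ad passed (0.28, adjusted p = 0.0316). Eif5b, which joins the large subunit at the end of initiation, was well above background on only 1 Apc normal and 2 polyp arrays and did not pass (adjusted p = 0.614).

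Of the eIF2 subunits, Eif2s1 was called higher and Eif2s2 lower, the latter with a less stable call. Eif2s1, the alpha subunit and the target of the stress kinases (probe at chr12:79986224-79986283, mm9), read 2.0, 2.06, 1.89 and 2.20 in wild-type tissue, 2.03, 2.75, 2.47 and 2.08 in Apc normal tissue and 2.88, 3.35, 3.09 and 3.21 in polyps. No polyp array fell within the range of either normal group. It was higher in polyps by 0.80 ± 0.19, 1.74-fold, adjusted p = 0.00969, and its other detected probe differed by 0.93. For Eif2s2, the beta subunit, the arrays read 5.41, 5.05, 5.07 and 5.27 in wild-type tissue, 5.34, 5.37, 4.72 and 5.23 in Apc normal tissue and 4.20, 4.39, 4.51 and 4.99 in polyps. The polyp of mouse 110 lay above the normal sample of mouse 107, so the groups overlapped, although the polyp was lower in each of the 4 mice. The difference was -0.65 ± 0.21 (adjusted p = 0.0373), and it was unequal on the 2 slides, -1.06 on slide 2 and -0.22 on slide 3. This call was lost under quantile normalization (-0.30, adjusted p = 0.301), with the mouse as a block (adjusted p = 0.0561), and with the normal sample of mouse 103, 106 or 110, or the polyp of mouse 103, 106 or 107, left out (adjusted p 0.075 to 0.094). The other detected probe of Eif2s2 gave -0.47 (adjusted p = 0.139), and the mean over the gene's probes did not pass (-0.56, adjusted p = 0.0703). The gamma subunit Eif2s3x differed by 0.19 ± 0.12 and did not pass, although a dimmer probe of it gave 0.41 (adjusted p = 0.0189). Eif2d (0.31 ± 0.12, adjusted p = 0.0682) and Eif2a (-0.03 ± 0.09), which can bring tRNA to the ribosome in other ways, did not pass.

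The exchange factor eIF2B was the role with the largest share of members that rose. In polyps against Apc normal tissue 4 of its 5 subunits were higher (80%, beside 20.5% of all genes tested). None was lower (beside 24.9%), and the median difference was 0.37. Eif2b2, the beta subunit, read 2.90, 2.87, 2.85 and 2.83 in wild-type tissue, 2.83, 2.71, 2.96 and 2.76 in Apc normal tissue and 3.26, 3.36, 3.33 and 3.28 in polyps. The polyp arrays lay close together and above every normal array. The difference was 0.49 ± 0.10, 1.40-fold, adjusted p = 0.00407. Eif2b3 (0.59 ± 0.15), Eif2b4 (0.37 ± 0.11) and Eif2b5, the catalytic subunit (0.36 ± 0.09), also rose. Eif2b1, the regulatory alpha subunit, differed by 0.18 ± 0.11 without passing, and it passed as higher under quantile normalization (0.38, adjusted p = 0.0205). The calls for Eif2b4 and Eif2b5 depended on single arrays: Eif2b4 was lost when the polyp of mouse 103, 106 or 107, or the normal sample of mouse 106 or 110, was left out (adjusted p 0.059 to 0.0737), and Eif2b5 when the polyp of mouse 106 was left out (adjusted p = 0.0506). Scaling to the array median in place of the 75th percentile ended both (adjusted p = 0.109 and 0.0718).

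Of the 4 kinases that phosphorylate eIF2-alpha, Eif2ak1 fell (25%, near the 24.9% of all genes tested) and the other 3 did not pass. Eif2ak1, the heme-regulated kinase, read 0.49, 0.18, 0.32 and 0.45 in wild-type tissue, 0.31, -0.18, 0.30 and 0.09 in Apc normal tissue and -0.30, -0.39, -0.24 and -0.33 in polyps. The groups did not overlap, though the normal sample of mouse 106 came close to the highest polyp. The difference was -0.44 ± 0.13 (adjusted p = 0.0257). It was lost when the normal sample of mouse 103 or 107, or the polyp of mouse 103, 106 or 110, was left out (adjusted p 0.0547 to 0.0705) and with scaling to the array median (adjusted p = 0.0963). Eif2ak2, the kinase that senses double-stranded RNA, Eif2ak3, the kinase of the endoplasmic reticulum, and Eif2ak4, which senses uncharged tRNA, differed by 0.04 ± 0.20, 0.01 ± 0.17 and 0.01 ± 0.18. The other 2 detected probes of Eif2ak4 gave 0.22 (adjusted p = 0.162) and 0.41 (adjusted p = 0.0781).

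Among the 13 eIF3 subunits, 3 rose (23.1%, near the 20.5% of all genes tested), 1 fell (7.69%, beside 24.9%) and 9 did not pass (median difference 0.11). Eif3b, a core scaffold subunit, read 1.80, 1.78, 1.57 and 1.66 in wild-type tissue, 2.04, 1.95, 2.02 and 1.90 in Apc normal tissue and 2.52, 2.73, 2.53 and 2.44 in polyps. The 3 groups formed 3 separate ranges in that order. The polyps were higher than Apc normal tissue by 0.58 ± 0.10, 1.49-fold, adjusted p = 0.00245. Eif3a, the largest subunit, rose by nearly the same amount (0.57 ± 0.10, adjusted p = 0.00274), and Eif3d, which can itself bind the cap, rose by 0.34 ± 0.09 (adjusted p = 0.0206). The call for Eif3d was lost with the polyp of mouse 107 (adjusted p = 0.0581) or 110 (adjusted p = 0.0554) left out. Eif3h, a subunit outside the core, read 5.96, 5.77, 5.84 and 5.80 in wild-type tissue, 5.67, 5.59, 5.60 and 5.68 in Apc normal tissue and 5.37, 5.25, 5.49 and 5.29 in polyps. Again the 3 groups did not overlap, in the reverse order. Its difference of -0.29 ± 0.10 (adjusted p = 0.0394) was not robust to the scaling, since quantile normalization turned it to 0.11 (adjusted p = 0.354). It was also lost with the mouse as a block (adjusted p = 0.0712) and without any 1 array other than the polyp array of mouse 107 (adjusted p 0.0553 to 0.11). The remaining subunits ranged from -0.41 (Eif3f) to 0.25 (Eif3j1), and Eif3f passed with the mouse as a block (adjusted p = 0.0332) and in 1 fit of all 12 arrays (adjusted p = 0.0406). Under quantile normalization Eif3c, Eif3g, Eif3l and Eif3m passed as higher (0.50, 0.59, 0.47 and 0.38), so the split of this complex depended on the scaling.

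In the eIF4F group, 3 of 11 tested genes rose (27.3%, beside 20.5% of all genes tested) and 1 fell (9.09%, beside 24.9%). Eif4e, the cap-binding protein itself, read 1.22, 1.32, 1.41 and 1.49 in wild-type tissue, 1.28, 1.80, 1.54 and 1.44 in Apc normal tissue and 1.88, 2.24, 2.01 and 2.0 in polyps. The polyp range lay above both normal ranges. The difference was 0.52 ± 0.14, 1.43-fold, adjusted p = 0.0176, and the call was lost with the polyp of mouse 106 left out (adjusted p = 0.0527). Of its other 2 detected probes, which were dimmer, 1 differed by 0.43 (adjusted p = 0.0316) and 1 by -0.18 (adjusted p = 0.365), and the mean over all 3 did not pass (0.26, adjusted p = 0.143). The promoter of Eif4e is shown because it holds the E-box CACGTG, the 6 letters bound by MYC and related factors, at 2 places; the letters are in capitals in the 250 bases before a RefSeq start, on the plus strand at chr3:138527018-138527267 of GRCm38.p6.
Eif4e: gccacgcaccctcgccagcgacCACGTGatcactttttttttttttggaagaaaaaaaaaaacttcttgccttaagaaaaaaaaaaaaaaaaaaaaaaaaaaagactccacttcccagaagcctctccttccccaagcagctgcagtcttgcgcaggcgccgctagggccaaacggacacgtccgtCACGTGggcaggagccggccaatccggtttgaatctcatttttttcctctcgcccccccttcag
The 2 E-boxes begin 228 and 64 bases before the start. The other listed start of Eif4e, with its window at chr3:138525941-138526190, holds none. No binding was measured in this study, so the letters are a description of the sequence only.

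Eif4e3, a less studied cap-binding paralog, had the largest rise of the tested members. Its probe lies at chr6:99575493-99575552 (mm9, as the files give it). It read -4.37, -4.21, -4.14 and -4.83 in wild-type tissue, -4.36, -4.08, -3.18 and -3.89 in Apc normal tissue and -2.70, -2.90, -2.39 and -2.65 in polyps. The normal sample of mouse 107 was the highest of the normal arrays, and its polyp was the highest of the polyps. The difference was 1.22 ± 0.25, 2.33-fold, adjusted p = 0.00498. Eif4e2, which represses translation from the cap, differed by -0.05 ± 0.11.

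The helicase paralogs differed from each other in sign. Eif4a2 (probe at chr16:23113939-23113998, mm9) read 4.11, 4.18, 4.19 and 4.27 in wild-type tissue, 3.97, 3.96, 3.98 and 3.58 in Apc normal tissue and 3.11, 3.44, 3.25 and 3.20 in polyps. All 3 groups were separate, highest in wild-type tissue and lowest in polyps. It fell by 0.62 ± 0.13 between Apc normal tissue and polyps (1.54-fold, adjusted p = 0.00577), and its other detected probe gave -0.59. Eif4a1, the form abundant in dividing cells, differed by 0.22 ± 0.11 (adjusted p = 0.14; under quantile normalization 0.57, adjusted p = 0.00174) and Eif4a3, a subunit of the exon junction complex, by 0.20 ± 0.12 (adjusted p = 0.22); the contrast between the paralogs was not itself tested.

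Of the scaffold genes, Eif4g3 read 0.21, 0.49, 0.24 and 0.21 in wild-type tissue, 0.37, 0.43, 0.65 and 0.56 in Apc normal tissue and 1.18, 1.15, 1.09 and 0.92 in polyps. The lowest polyp lay above the highest normal array. The difference was 0.58 ± 0.11, 1.5-fold, adjusted p = 0.0034. Its dimmer probes disagreed: 1 gave 0.41 (adjusted p = 0.0877) and 1 gave -0.36 (adjusted p = 0.65), and the mean over the probes did not pass (0.28, adjusted p = 0.329). Eif4g1, the main scaffold, differed by 0.19 ± 0.10 (adjusted p = 0.152), and Eif4g2, which lacks the eIF4E-binding site, by 0.30 ± 0.12 (adjusted p = 0.0653), and both passed under quantile normalization (0.44 and 0.43). The helicase cofactors Eif4b and Eif4h differed by -0.06 and -0.17, and neither passed.

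The 4E-binding proteins were the family whose members differed most. Eif4ebp3 had the largest fall of the tested members: it read 4.54, 4.60, 4.62 and 4.82 in wild-type tissue, 4.68, 4.18, 4.46 and 4.14 in Apc normal tissue and 2.41, 1.94, 2.32 and 2.43 in polyps. Every polyp lay far below every normal array. The difference was -2.09 ± 0.17, a 4.26-fold fall with adjusted p = 0.000103, and it lay between -2.26 and -1.89 under all 21 alternatives run for single genes, each past the threshold. Eif4ebp1, the form best known as a TOR target, read 2.23, 2.45, 2.46 and 2.48 in wild-type tissue, 2.12, 3.12, 2.85 and 2.91 in Apc normal tissue and 3.13, 3.59, 3.35 and 3.55 in polyps. The polyp of mouse 103 (3.13) was just above the normal sample of mouse 106 (3.12), while within each mouse the polyp was higher. The difference was 0.66 ± 0.23 (adjusted p = 0.0436), a call lost with the normal sample of mouse 103, 107 or 110, or the polyp of mouse 106, 107 or 110, left out (adjusted p 0.0508 to 0.11). Eif4ebp2 read 2.42, 2.25, 2.29 and 2.26 in wild-type tissue, 2.37, 1.67, 1.81 and 2.05 in Apc normal tissue and 1.83, 1.52, 1.26 and 1.39 in polyps. The groups overlapped between mice, although each polyp was below the normal sample of its own mouse. The difference of -0.48 ± 0.19 did not pass (adjusted p = 0.0693), and it passed with the mouse as a block (adjusted p = 0.0301), in 1 fit of all 12 arrays (adjusted p = 0.0279) and with the polyp of mouse 103 (adjusted p = 0.0421) or the normal sample of mouse 106 (adjusted p = 0.0454) left out. Eif4enif1, which carries eIF4E into the nucleus, differed by 0.24 ± 0.10 (adjusted p = 0.09).

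**Figure D2:**
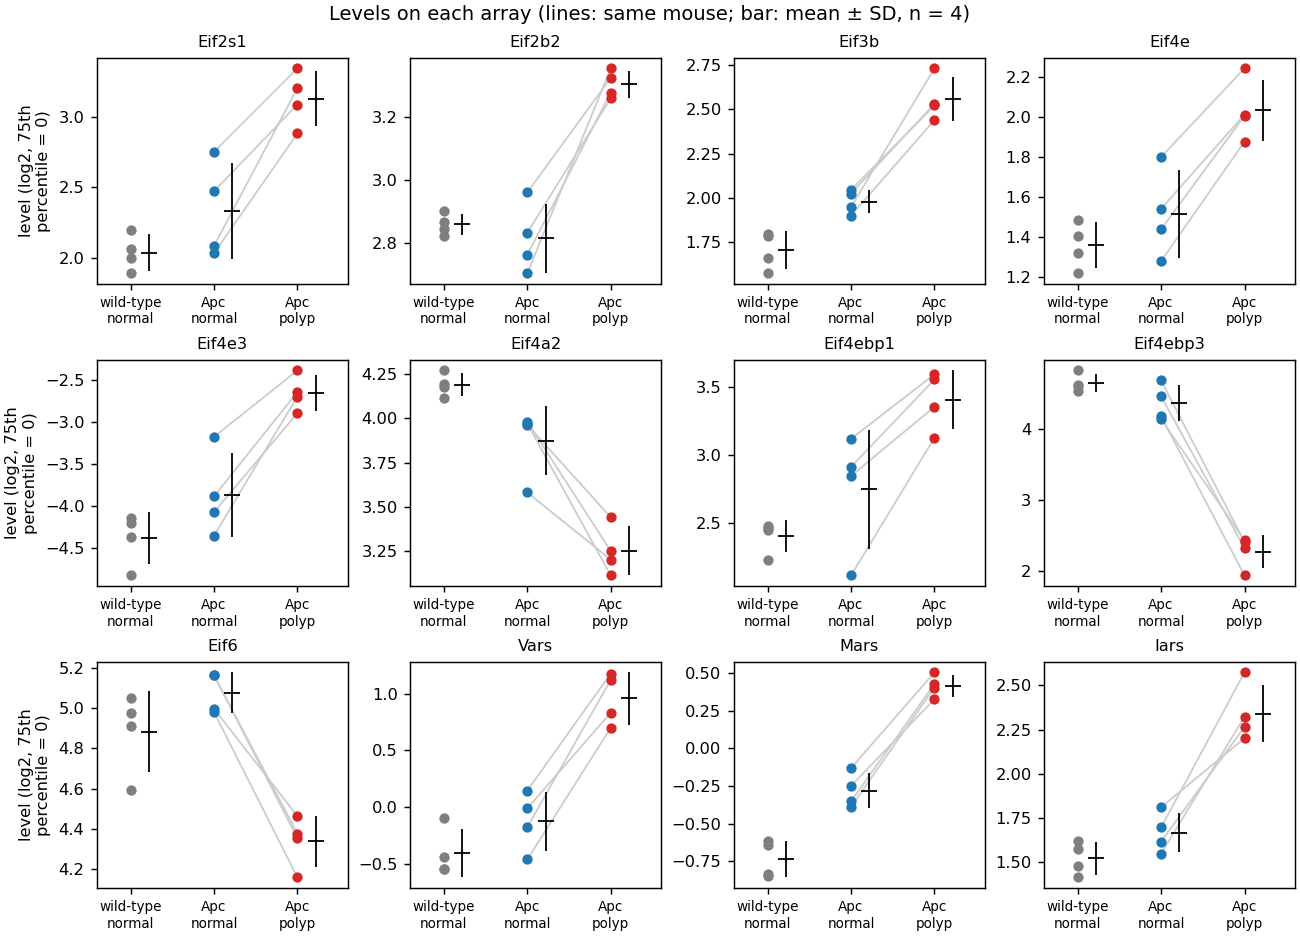
Levels of 12 genes on each array (vertical axes, log2 with the array's 75th percentile at 0, scales differ between panels) in wild-type normal tissue, Apc normal tissue and polyps; grey lines join the 2 samples of 1 mouse and bars are mean ± SD, n = 4. Eif4ebp3 drops from between 4.14 and 4.68 to between 1.94 and 2.43, while Eif4ebp1 and the synthetases Vars, Mars and Iars rise in every mouse.

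Eif6, which keeps the large ribosomal subunit from joining too early and acts in its assembly (probe at chr2:155645718-155645777, mm9), read 5.05, 4.97, 4.59 and 4.91 in wild-type tissue, 5.17, 4.98, 5.16 and 5.0 in Apc normal tissue and 4.35, 4.16, 4.38 and 4.46 in polyps. All polyps lay below all normal arrays. The difference was -0.74 ± 0.11, a 1.67-fold fall, adjusted p = 0.00101, and its 3 detected probes ranged from -0.74 to -0.54. Eif5a, the hypusine-bearing factor that helps ribosomes past stalling sequences, rose by 0.34 ± 0.10 (adjusted p = 0.0205), a call lost with the polyp of mouse 103 (adjusted p = 0.0524) or 106 (adjusted p = 0.0607) left out. Its paralog Eif5a2 differed by -0.19 ± 0.12 and did not pass.

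Of the Argonautes, Eif2c1 (now Ago1) read -2.46, -2.79, -2.83 and -3.02 in wild-type tissue, -2.46, -3.11, -2.98 and -2.98 in Apc normal tissue and -2.04, -2.21, -2.15 and -2.41 in polyps. The lowest polyp lay only just above the highest normal arrays, those of mice 102 and 103. The difference was 0.68 ± 0.16, 1.6-fold, adjusted p = 0.0104, and a further probe gave 0.65. Eif2c2 (Ago2, the slicing Argonaute), Eif2c3 and Eif2c4 differed by 0.05, 0.07 and -0.31 and did not pass.

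Among the 20 cytosolic synthetases, 7 rose in polyps against Apc normal tissue (35%, beside 20.5% of all genes tested) and none fell (beside 24.9%), with a median difference of 0.18. By limma 1 was lower at an unadjusted p under 0.05, Wars. Within single mice, 13, 15, 13 and 18 of the 20 were higher in the polyp of mouse 103, 106, 107 and 110. No such count over all genes tested was made to set beside it. Of the 8 that belong to the multi-synthetase complex, 3 rose (37.5%) and none fell. Mars, the methionyl enzyme, which charges both initiator and elongator tRNA (probe at chr10:126733940-126733999, mm9), read -0.64, -0.62, -0.85 and -0.83 in wild-type tissue, -0.39, -0.13, -0.35 and -0.25 in Apc normal tissue and 0.40, 0.50, 0.43 and 0.33 in polyps. The 3 groups were separate, with wild-type tissue lowest. The difference was 0.69 ± 0.10, 1.62-fold, adjusted p = 0.000962.

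Iars, the isoleucyl enzyme, read 1.41, 1.62, 1.57 and 1.48 in wild-type tissue, 1.55, 1.70, 1.62 and 1.81 in Apc normal tissue and 2.32, 2.57, 2.27 and 2.20 in polyps. Wild-type and Apc normal arrays overlapped and the polyps stood above both. The difference was 0.67 ± 0.12, 1.59-fold, adjusted p = 0.00241. Lars, the leucyl enzyme, which also senses leucine for TOR, read 1.42, 1.42, 1.5 and 1.45 in wild-type tissue, 1.35, 2.0, 1.54 and 1.82 in Apc normal tissue and 2.38, 2.26, 2.29 and 2.38 in polyps. The Apc normal arrays were the most spread of the 3 groups and stayed below the polyps. The difference was 0.65 ± 0.15, 1.57-fold, adjusted p = 0.00898. Rars, the arginyl enzyme, fell just short (0.49 ± 0.18, adjusted p = 0.052; with the mouse as a block, adjusted p = 0.0478), and Eprs, Dars, Kars and Qars differed by 0.10 to 0.18. Under quantile normalization Kars, Qars and the free enzymes Gars and Farsb passed as higher (0.39, 0.39, 0.46 and 0.44).

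Of the 12 free synthetases, 4 rose (33.3%, beside 20.5% of all genes tested) and none fell (beside 24.9%). Vars, the valyl enzyme (probe at chr17:35152339-35152398, mm9), read -0.54, -0.09, -0.54 and -0.44 in wild-type tissue, -0.17, 0.15, -0.46 and -0.01 in Apc normal tissue and 1.12, 1.18, 0.70 and 0.83 in polyps. All polyps lay well above all normal arrays. The difference was 1.08 ± 0.17, 2.12-fold, adjusted p = 0.00144. Cars, the cysteinyl enzyme (0.63 ± 0.11, adjusted p = 0.00246), Farsa, the alpha subunit of the phenylalanyl enzyme (0.56 ± 0.10, adjusted p = 0.00238), and Hars, the histidyl enzyme (0.33 ± 0.11, adjusted p = 0.0385), rose as well. The call for Hars was lost with the mouse as a block (adjusted p = 0.0545), with scaling to the array median (adjusted p = 0.095) and without any 1 array other than the Apc normal arrays of mice 106 and 107 (adjusted p 0.0637 to 0.103). Farsb, which pairs with Farsa in 1 enzyme, differed by 0.30 ± 0.14 (adjusted p = 0.124). Wars, the tryptophanyl enzyme, which interferon-gamma induces, was lower in the polyp of all 4 mice but did not pass (-0.28 ± 0.12, adjusted p = 0.0929). Aars, Gars, Tars, Nars, Sars and Yars differed by 0.17, 0.11, -0.05, 0.01, 0.01 and -0.15, with no call.

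**Figure D3:**
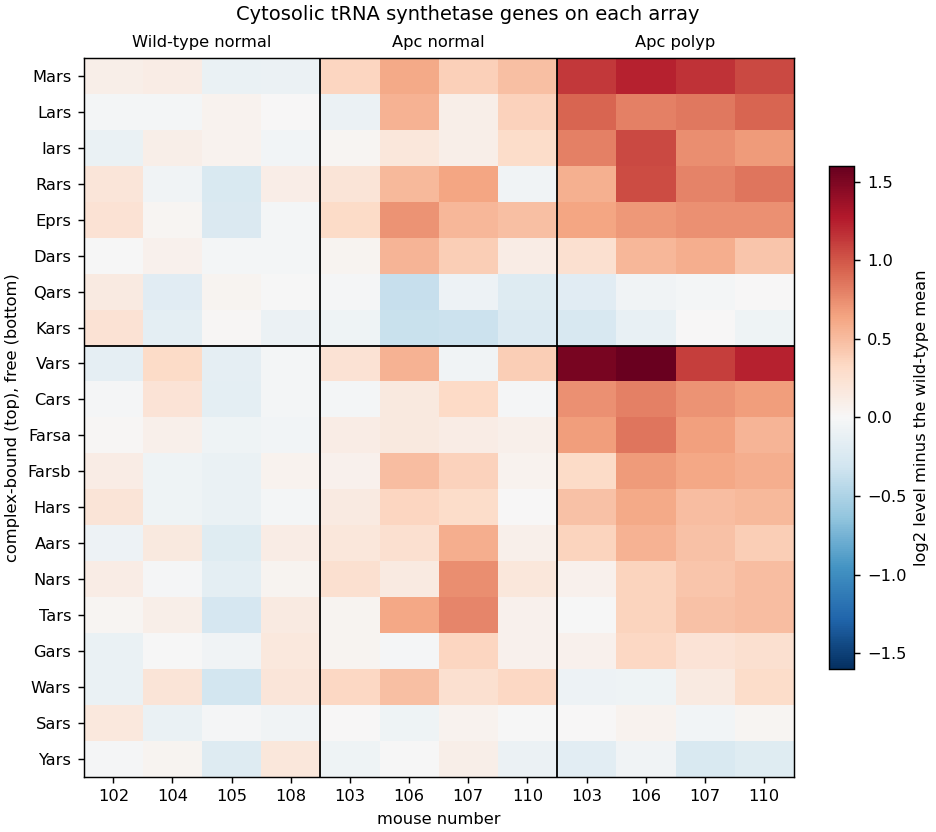
Level of each of the 20 synthetase genes on each array, as the log2 difference from the gene's wild-type mean (colour), with genes in rows, complex-bound above and free below, and the 12 arrays in columns by group and mouse number. Vars and Mars are the reddest rows in polyps, while Qars, Kars, Sars and Yars stay near the wild-type mean.

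Promoters of these genes were searched for sequence words, since several rose in the same samples. Of the 78 members, 59 matched a RefSeq promoter by symbol, with 73 promoters in all, and the windows were the 250 bases before each start on GRCm38.p6, read on both strands. The E-box CACGTG was in 14 of the 73 (19.2%), from 12 genes, and in 1978 of all 32851 promoters (6.02%). It was in 5 of 23 promoters of members called higher (21.7%) and 9 of 46 of tested members without a call (19.6%), among them Eif5a2 with 2 copies. By gene these were 3 of 15 called higher and 9 of 40 without a call, as several of the 5 promoters were windows of Eif5a. The core of the amino acid response element, TGATGNAA, which ATF4 and its partners bind, was in 4 member promoters (5.48%), of which 3 were among the 13 synthetase promoters (23.1%), and in 1134 of all promoters (3.45%). The word CTTTGAT, read by TCF factors of the Wnt pathway, was in none of the 73 and in 1053 of all promoters (3.21%), which says only that these letters are not in these windows. Overlapping starts of 1 gene share sequence, and base composition differs between promoters, so these shares are descriptions. The next 4 sequences are shown because they are the synthetase promoters with the response element and, beside them, that of Iars, a called synthetase with an E-box. Farsb, not called, also holds one. The promoters of Farsa and Mars, both called higher, hold none of the words searched. Matched words are in capitals, and the response element reads on the opposite strand, as TTNCATCA, in each sequence that has it.
Iars, chr13:49681880-49682129, plus strand: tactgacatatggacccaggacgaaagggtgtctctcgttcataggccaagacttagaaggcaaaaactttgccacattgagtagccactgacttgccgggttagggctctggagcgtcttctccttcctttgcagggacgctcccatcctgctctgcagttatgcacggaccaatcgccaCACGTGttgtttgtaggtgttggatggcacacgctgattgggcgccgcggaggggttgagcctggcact
Aars, chr8:111033592-111033841, plus strand: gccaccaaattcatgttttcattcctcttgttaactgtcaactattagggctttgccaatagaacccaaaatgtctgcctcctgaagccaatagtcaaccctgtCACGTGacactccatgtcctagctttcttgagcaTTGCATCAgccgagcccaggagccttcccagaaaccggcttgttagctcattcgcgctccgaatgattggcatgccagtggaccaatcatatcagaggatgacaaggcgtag
Gars, chr6:55037751-55038000, plus strand: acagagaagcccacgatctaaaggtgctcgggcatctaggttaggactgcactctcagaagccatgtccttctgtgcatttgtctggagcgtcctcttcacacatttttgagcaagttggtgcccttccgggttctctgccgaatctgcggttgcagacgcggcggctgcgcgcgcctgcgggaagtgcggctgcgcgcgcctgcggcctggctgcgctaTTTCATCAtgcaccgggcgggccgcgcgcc
Tars, chr15:11399659-11399908, minus strand: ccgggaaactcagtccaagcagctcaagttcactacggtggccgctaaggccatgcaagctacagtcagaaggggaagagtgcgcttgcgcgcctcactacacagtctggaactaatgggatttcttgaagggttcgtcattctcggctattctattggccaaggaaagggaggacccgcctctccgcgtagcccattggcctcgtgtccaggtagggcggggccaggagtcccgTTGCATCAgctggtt
In Iars, which rose, the E-box begins 69 bases before the start. Aars holds both words, at 146 and 112 bases before the start, and Gars and Tars hold the response element at 30 and 15 bases. Those 3 synthetases did not pass the test in polyps against Apc normal tissue (differences 0.17, 0.11 and -0.05). Vars, Lars, Cars, Hars, Eif4ebp1, Eif4ebp3, Eif4e3 and Eif6 were among the 19 members with no matching promoter entry.

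In Apc normal tissue against wild-type normal tissue, no member passed by limma in either direction, where 0.149% of all genes tested were called higher and 0.0199% lower. At an unadjusted p under 0.05, 4 members were higher (8.22% of all genes tested) and 5 were lower (8.91%), so their shares were near the background or under it. The median difference over the members was 0.06 and over all genes -0.02. Mars (0.45), Eprs (0.51), Wars (0.35) and Eif3b (0.28) were those higher at the unadjusted threshold, with adjusted p from limma of 0.115, 0.144, 0.26 and 0.216. For each of these the Apc normal arrays lay wholly above the wild-type arrays, as they did for 5 members in all (4.78% of all genes tested), and they lay wholly below for 5 (5.53% of all genes tested). Eif4a2, Eif3h, Eif4b and Eif2a, lower at the unadjusted threshold, differed by -0.32, -0.21, -0.29 and -0.23. Eif5b, the fifth, was well above background on 4 wild-type arrays but on only 1 of 4 Apc normal arrays, so it entered the test through the group where it is high, and the size of its difference is not given. Of the synthetases, 16 of 20 had a positive difference, with a median of 0.24, and over all genes tested 9459 of 20084 had one. All wild-type arrays were on slide 1 and all Apc arrays on slides 2 and 3, so genotype and slide cannot be told apart. With slide as a random block in a fit of all 12 arrays, Mars (adjusted p = 0.0219) and Eprs (adjusted p = 0.0272) passed as higher and Eif5b, with the limit just given, as lower (adjusted p = 0.0453). The slide correlation in that fit was estimated at -0.0816, below 0, and over all genes it called 467 higher and 347 lower, where the fit of the 8 arrays called 30 and 4. With all 12 arrays in 1 fit without the block Mars passed (adjusted p = 0.048). Smooth muscle markers were also lower here at an unadjusted p under 0.05 in 5 of 6 (median -0.46), with a summed level of 8.74 to 9.20 in wild-type and 8.20 to 8.68 in Apc normal tissue. Of the 7 interferon response genes 1 was called higher and 3 were higher at an unadjusted p under 0.05 (summed level 4.42 to 4.84 against 4.13 to 5.03). The part of these shifts in the values of the lower members and of Wars was not tested.

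In polyps against wild-type normal tissue, 38 of 76 members were higher (27.4% of all genes tested) and 13 were lower (32.8% of all genes tested), again with slide and group inseparable and with the same 4 polyp arrays as above. The 13 include Eif5b, which was well above background on 4 wild-type arrays but on only 2 polyp arrays. Eif5b thus entered the test through the group where it is high. The groups did not overlap for 36 higher members (25.3% of all genes tested) and 14 lower (31.3%). The median difference was 0.29 over the members and -0.05 over all genes. Quantile normalization gave 49 higher and 8 lower members (30.11% and 29.36% of all genes tested). Normexp with quantile normalization gave 48 and 8 (29.97% and 29.29% of all genes tested). The 3 highest were Eif4e3 (1.73, 3.32-fold, adjusted p = 7.87e-05), Vars (1.36, 2.57-fold, adjusted p = 0.000123) and Mars (1.15, 2.22-fold, adjusted p = 2.46e-05). The 3 lowest were Eif4ebp3 (-2.37, 5.18-fold lower, adjusted p = 6.37e-06), Eif4a2 (-0.94, 1.92-fold lower, adjusted p = 7.11e-05) and Eif4ebp2 (-0.81, 1.75-fold lower, adjusted p = 0.000902). All 5 eIF2B subunits were higher, by 0.30 to 0.49. Of the synthetases 13 were higher and none was lower, 6 of 8 complex-bound and 7 of 12 free, with a median of 0.48. Members higher here that had not passed against the tissue of the same mice included Eprs (0.69), Rars (0.82), Dars (0.45), Eif1a (0.83) and Eif4a1 (0.52), and this says nothing of a change between those normal tissues.

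The rest of the translation machinery was read from lists chosen by function, whose counts stand beside 20.5% higher and 24.9% lower over all genes tested. Of the 16 mitochondrial synthetases tested (Nars2 was below background), the polyp to normal comparison called 3 higher and 4 lower (median 0.01), beside 7 and 0 of the 20 cytosolic ones; the difference between the lists was not tested. Yars2, the mitochondrial tyrosyl enzyme, read -0.44, -0.14, -0.04 and -0.45 in Apc normal tissue and 0.43, 0.74, 0.48 and 0.30 in polyps (0.76 ± 0.15, adjusted p = 0.00376), and Sars2, the seryl enzyme, differed by 0.43 ± 0.11 (adjusted p = 0.0111). Among the synthetase partners, 2 of 6 were higher and 2 lower. Eef1e1, a small subunit of the multi-synthetase complex, read -0.23, 0.49, -0.17 and -0.20 in Apc normal tissue and 0.77, 1.24, 0.91 and 0.85 in polyps (0.97 ± 0.19, adjusted p = 0.00425), and the complex scaffold Aimp2 was higher by 0.51. Sepsecs, the last enzyme of selenocysteinyl-tRNA synthesis, was lower by 0.77 (difference -0.77 ± 0.15, adjusted p = 0.0039).

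Elongation factors included 1 higher (12.5%) and 3 lower (37.5%) of 8. Eefsec, which delivers selenocysteinyl-tRNA, rose by 0.57 ± 0.11 (adjusted p = 0.00352). Eef1a2, the elongation factor of muscle and neurons, was well above background on 0 polyp arrays and on 2 of 4 Apc normal arrays. It met the filter through neither of these groups, so its adjusted p is not given, though it is 1 of the 3 lower. With the polyp values raised to the detection limit, its fall was 1.67-fold (measured means -5.55 and -7.54). The Apc normal mean includes arrays not well above background, so this is not a lower bound. The smooth muscle markers were lower in the same samples (median log2 difference -3.98), and their part in the Eef1a2 difference was not tested. Termination and recycling factors were 4 higher and 1 lower of 7: Etf1, the release factor, rose by 0.37 ± 0.10 (adjusted p = 0.0159) and Gspt2 fell by 0.57 (-0.57 ± 0.13, adjusted p = 0.00942). Of the 9 mitochondrial translation factors, none rose and 2 fell, Gfm2 (-0.41 ± 0.09, adjusted p = 0.00843) and Mtif3 (-0.76 ± 0.19, adjusted p = 0.0123).

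Of the 12 initiation partners outside the Eif names, 4 rose and 2 fell. Pdcd4, an inhibitor that binds eIF4A, read 4.96, 4.95, 5.06 and 5.49 in wild-type tissue, 5.12, 5.55, 5.0 and 5.40 in Apc normal tissue and 3.16, 2.72, 3.22 and 3.41 in polyps. Every polyp lay far below every normal array. The difference was -2.14 ± 0.18, a 4.41-fold fall, adjusted p = 0.000124. Dhx29, a helicase for structured leaders, rose by 0.78 ± 0.16 (adjusted p = 0.00546), and so did the poly(A)-binding proteins Pabpc1 (0.57) and Pabpc4 (0.51) and their partner Paip1 (0.62).

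In the TOR pathway list 1 of 11 rose (9.09%) and 3 fell (27.3%, near the 24.9% of all genes tested). Deptor, an inhibitor within TOR complexes, read 2.04, 1.22, 1.70 and 1.61 in Apc normal tissue and 0.34, -0.82, 0.07 and 0.13 in polyps, a difference of -1.71 ± 0.28 (3.28-fold lower, adjusted p = 0.00165). Rps6kb1, the S6 kinase, rose by 0.45 ± 0.10 (adjusted p = 0.00647), and Tsc1 and Rps6kb2 were called lower. Of the 15 amino acid response genes, most of which ATF4 drives when eIF2 is phosphorylated, 7 rose and 1 fell (Ddit3, -0.88 ± 0.17). Slc7a11, the cystine transporter, read -8.14, -5.47, -6.32 and -5.45 in Apc normal tissue, where 1 of 4 arrays was well above background. In polyps it read -2.06, -0.92, -2.17 and -2.16, with all 4 well above background. Of the 2 groups compared only the polyps met the filter, and 3 of the 4 normal values were not well above background. The size and adjusted p of that difference are therefore not given, though the gene is 1 of the 7. Psat1, of serine synthesis, read -1.07, -0.21, 0.10 and -0.27 in Apc normal tissue and 1.18, 1.62, 1.64 and 1.56 in polyps (1.86 ± 0.25, adjusted p = 0.000671). Atf4 itself differed by 0.08 ± 0.13 and Asns, the asparagine synthetase, by 0.30 ± 0.27, and neither passed.

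**Figure D4:**
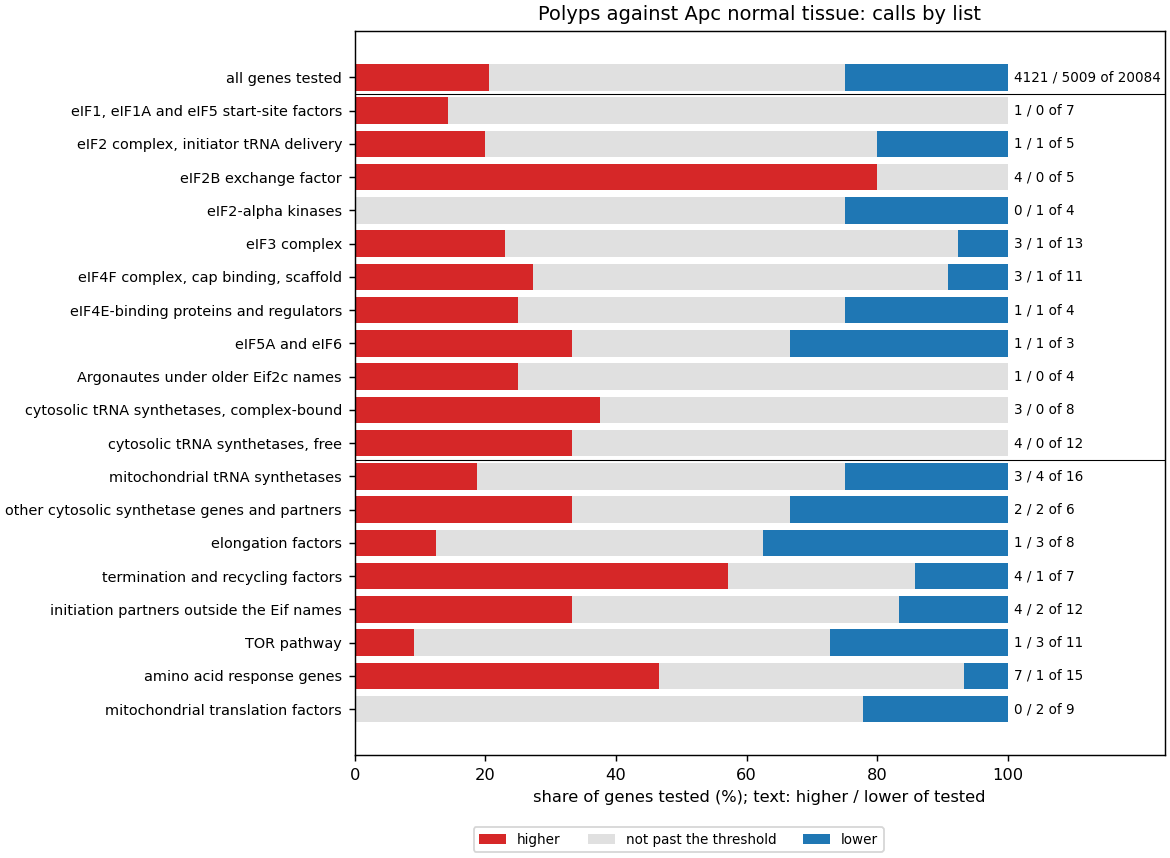
Share of tested genes called higher, lower or not past the threshold in polyps against Apc normal tissue (horizontal axis, percent; counts at the right) for all genes tested, for the members by role and for the other translation lists. The eIF2B bar is mostly red (4 of 5), and the mitochondrial translation factors have no gene called higher (0 of 9).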

How the data were processed

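Colorectal RNA of 12 samples was hybridised to Agilent 1-colour mouse arrays, and spot intensity was extracted by the authors with Agilent Feature Extraction 10.7.3.1, per the file headers and the submitters' processing notes. The deposited processed intensity is background-subtracted, per the file headers. From it, log2 values were taken and each array's 75th percentile was subtracted; 1403 outlier spots were left out, and spots of a probe were averaged. The probe with the highest mean over the 12 arrays stood for each gene. The authors' deposited value table holds relative intensities. Their log2 equalled these values up to a constant per array, within 1%, for at least 99.8% of probes. Gene names came from the array design, updated through a RefSeq table of GRCm38.p6, used for names only; probe positions are those of the file (mm9), whose exon or UTR annotation was not used here.

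Each comparison was fitted on its own 8 arrays with limma 3.58.1 in R 4.3.3 and adjusted over 20084 genes. Tested on simulated data of that size for polyps against Apc normal tissue, the fit recovered 8% of genes changed by log2 0.5, 36% by 1, 76% by 2 and 80% by 3. Only 50 of the 20084 genes were changed at each size, where the data called 4121 higher and 5009 lower. The adjustment was therefore stricter in the simulation, and these shares do not carry over to the members. The number of arrays limits the precision. Same-numbered Apc samples are from 1 mouse, and their deviations correlated at 0.455, 0.17, 0.143 and 0.282, so the mouse number was used as a block in an alternative.

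The genes and lists were chosen with earlier results of these data known. The naming rule took the 8 highest and up to 8 lowest called members (6 were called lower), the member of smallest p in each role, and the 3 highest and 3 lowest in the other comparisons, which are given on every array; most paralogs and other members are given by their difference, and from each other list the 2 genes of smallest p are named, with further genes chosen after their values were seen. Alternatives covered scaling, background correction, the filter, the probe choice, the block, slides and leaving out each array.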

Additional observations from a re-analysis of the deposited data

Results flagged for a closer look

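Of 57 groups of 4 arrays tested for 1 array standing apart, 4 had one by Dixon's test, and chance gives about 1 in 20. Eif1ax was highest in the Apc normal sample of mouse 106 (3.29), with the other 3 at 3.0 to 3.05. Eif4a2 was lowest in the Apc normal sample of mouse 110 (3.58), with the others at 3.96 to 3.98. Eif4ebp1 was lowest in the wild-type sample of mouse 102 (2.23), with the others at 2.45 to 2.48. Eif4g3 was highest in the wild-type sample of mouse 104 (0.49), with the others at 0.21 to 0.24.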

How the results depend on the processing

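In polyps against Apc normal tissue, 18 of the 28 called members kept their call with each array left out in turn, and 17 did so in every alternative but the single slides. The count of higher members was 37 under quantile normalization, 42 under normexp with quantile normalization, 2 on slide 2 alone and 0 on slide 3 alone. The count of lower members was 3 with no filter on dim probes (14.63% of all genes in that fit), 2 on slide 2 and 1 on slide 3. The shares over all genes for the quantile settings and the single slides are given with these counts above. With 1 array left out, 16 to 23 members were higher and 3 to 5 lower. The replicate block, pairing samples by mouse, gave 23 higher and 6 lower; it ended the calls of Eif2s2, Eif3h and Hars and added Eif1a, Eif3f, Eif4ebp2 and Rars. Eif3h turned to 0.11 under quantile normalization and 0.12 with normexp. In Apc normal against wild-type tissue the count higher was 1 with all 12 arrays in 1 fit and 2 with slide as a random block, which also gave 1 lower, and 0 with any array left out. There, leaving out 1 array moved Eif1ax between -0.0024 (Apc normal tissue of mouse 106 omitted) and 0.10, and Eif2s2 between -0.10 and 0.11, turning its sign with wild-type mouse 102 (0.04) or the normal sample of mouse 107 (0.11) omitted. In polyps against wild-type tissue the count lower was 8 under either quantile setting and 21 where every probe was tested by itself, a count of probes with 1 or more per gene, and with 1 array left out 35 to 40 were higher and 11 to 12 lower. The causes were not tested.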
